A study of Mus musculus with 6 samples.

Results

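Chrna9, Chrna10 and Rapsn were examined in the vestibular epithelium of mice given the ototoxic nitrile IDPN. Chrna9 and Chrna10 encode the alpha9 and alpha10 subunits of the efferent nicotinic acetylcholine receptor of hair cells (HC), and Rapsn encodes rapsyn, the scaffold protein that gathers nicotinic receptors at synapses. The 3 genes were taken by symbol from the 52636 genes of the deposited table, with earlier results of these data known. All 6 animals were male 129S1/SvImJ mice, 2 to 4 months old. The 3 Control animals drank plain water and the 3 IDPN animals drank water with 30 mM IDPN (3,3'-iminodipropionitrile) for 8 weeks, an exposure labelled as subchronic ototoxicity. Each library held the pooled 2 utricles and 6 cristae of 1 animal, so the values are averages over HCs, supporting cells, nerve endings and glia of both organs. The labels name 1 batch. A code stem in the titles is common to the Control animals and absent from the IDPN animals, and whatever it stands for cannot be told apart from treatment.

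Efferent neurons of the brainstem send axons to the inner ear and release acetylcholine onto HCs and onto afferent endings. In HCs, acetylcholine opens a channel built of alpha9 and alpha10 subunits, calcium enters, and nearby calcium-activated potassium channels of the SK and BK types then hyperpolarize the cell. In the vestibular organs, type II HCs receive direct efferent contacts, whereas type I HCs are wrapped by an afferent calyx that the efferents contact instead. Rapsyn is best known from the neuromuscular junction, where it links the receptor to the cytoskeleton downstream of agrin, LRP4 and MuSK.

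Chrna9 (ENSMUSG00000029205.12) lies at chr5:65934921-65977326 on the plus strand of GRCm38, and its main coding transcript has 5 exons and 1843 bases. Chrna10 (ENSMUSG00000066279.3) lies at chr7:102111266-102116828 on the minus strand, and its main coding transcript has 5 exons and 2513 bases. Rapsn (ENSMUSG00000002104.11) lies at chr2:91035620-91045729 on the plus strand, and its longest coding transcript has 8 exons and 1606 bases. The 250 bases before the RefSeq start of the subunit genes are shown because the values of both subunit genes were lower in the same libraries below. They are RefSeq sequences of build GRCm38.p6, at chr5:65966874-65967123 (plus strand) and chr7:102116714-102116963 (minus strand), and capitals mark matches on either strand to the E-box CAGNTG, the letters bound by basic helix-loop-helix factors. These starts are those of the main coding transcripts, and other annotated transcripts of both genes start further upstream, so the stretches lie wholly (Chrna9) or partly (Chrna10) within the gene spans given above.
Chrna9: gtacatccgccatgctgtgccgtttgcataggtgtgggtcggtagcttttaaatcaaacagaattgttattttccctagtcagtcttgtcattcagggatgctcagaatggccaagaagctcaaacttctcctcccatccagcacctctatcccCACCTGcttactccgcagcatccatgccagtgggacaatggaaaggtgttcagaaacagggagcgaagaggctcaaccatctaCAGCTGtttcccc
Chrna10: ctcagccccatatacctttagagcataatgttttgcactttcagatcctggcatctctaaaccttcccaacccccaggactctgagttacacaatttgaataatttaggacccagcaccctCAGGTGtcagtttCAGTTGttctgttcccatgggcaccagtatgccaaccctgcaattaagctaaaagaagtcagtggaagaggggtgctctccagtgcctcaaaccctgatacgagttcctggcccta
Each stretch held 2 E-box matches. Those of Chrna9 began 96 and 13 bases before the start of transcription, and those of Chrna10 began 129 and 116 bases before it. Of 32851 promoters of the same length, 44.8% held at least 1 such match, so its presence does not set the genes apart. Neither stretch held the E-box form CACGTG, which 6.02% of promoters held. Neither held the TATA-box letters TATAAA, which 12.4% of promoters held. The homeobox core TAATTA was also not found in either, against 4.84% of promoters. All were searched on both strands. The GC content was 50.0% for Chrna9 and 48.0% for Chrna10, against a median of 52.4% over all promoters.

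Library totals ran from 40474847 to 43566332 estimated counts. Expression is given below as the normalized read count, which is the estimated count divided by the library's DESeq2 size factor (0.825 to 1.21). A gene was called upregulated or downregulated where its adjusted p (Padj, DESeq2 Wald test with Benjamini-Hochberg adjustment) was under 0.05 and its fold change over 1.5. Of 17650 genes tested, 410 (2.32%) were called upregulated and 604 (3.42%) downregulated by IDPN, and the median log2-fold change of all of them was 0.015. Scaling to library totals shifted the log2-fold changes of these genes by a median of 0.25 and turned the split to 609 upregulated and 214 downregulated genes. The changes below are to be read beside that median shift. HC markers were present in every library, with a summed normalized count of 63946 to 69766 in Control and 44482 to 46151 in IDPN for the 29 of 30 listed genes that were found. Of these 29 genes, 9 were called downregulated and none upregulated, and their median log2-fold change was -0.57. The median was -0.33 without Control 3, and with scaling to library totals it was -0.34 with 4 genes called.

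Both receptor subunit genes were lower after IDPN and the scaffold gene was higher, each without overlap between the groups. Of all genes tested, 11.4% had every IDPN library below every Control library, and 11.1% had every one above. None of the 3 genes examined passed both thresholds. Mean Chrna9 was 0.691 times and mean Chrna10 0.680 times the Control level, both with Padj just under 0.05 and fold changes below the 1.5-fold threshold. With scaling to library totals both had log2-fold changes of -0.30 that did not pass (DESeq2 Padj = 0.516 and 0.448). Mean Rapsn was 1.44 times the Control level, with a Padj that missed the threshold. In bulk tissue, fewer cells of a type and less RNA per cell cannot be told apart.

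**Figure D1:**
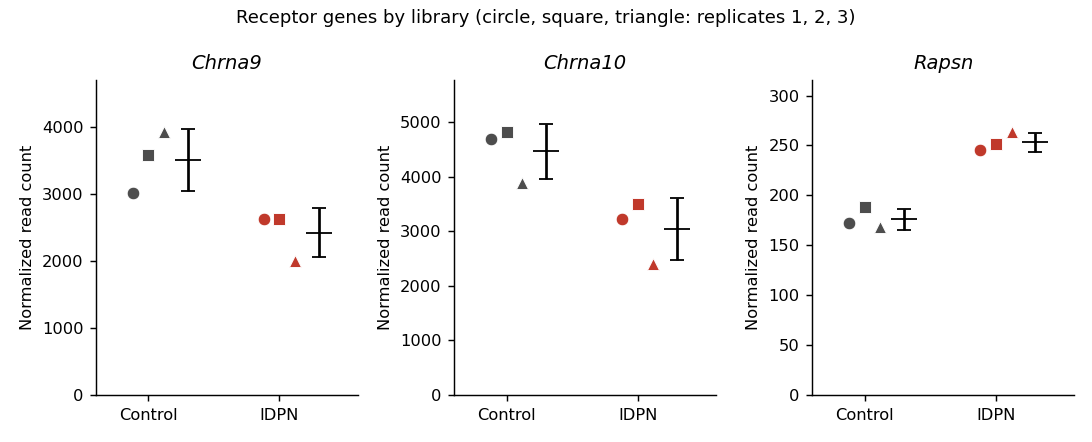
Normalized read counts of Chrna9, Chrna10 and Rapsn in each Control (grey) and IDPN (red) library, on linear axes from 0; the dash and bar beside each group are the mean and SD (n = 3). All 3 IDPN libraries lie below all Control libraries for both subunits, and above them for Rapsn, as for 11.4% and 11.1% of all genes tested.

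Chrna9 encodes the subunit that can form a channel alone and that alpha10 joins. Its normalized read counts were 3011, 3579 and 3923 in the Control libraries and 2634, 2627 and 1999 in the IDPN libraries. Every IDPN library was lower than every Control library, which held for 11.4% of all genes tested, and the lowest value was in IDPN 3. The mean was 3504 ± 460.2 (SD, n = 3) in Control and 2420 ± 365 (n = 3) in IDPN. The log2-fold change was -0.53 (SE 0.18, 95% interval -0.88 to -0.18), and Chrna9 passed the Padj threshold in DESeq2 (Padj = 0.0459) but not in edgeR's quasi-likelihood test (adjusted p = 0.126). Over all genes tested, 3.9% were lower with a DESeq2 Padj under 0.05 at any fold change. Without Control 1, the lowest Control library, the estimate was -0.64 and the gene was called downregulated (DESeq2 Padj = 0.0315), whereas leaving out any other library took its Padj past 0.05, up to 0.243.

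Chrna10 encodes the subunit that needs alpha9 to form a channel and increases the size of its currents. Its normalized read counts were 4692, 4813 and 3879 in Control and 3215, 3492 and 2395 in IDPN. The groups again did not overlap, which held in this direction for 11.4% of all genes tested. IDPN 3 was again the lowest, while the lowest Control library was Control 3, the one that was highest for Chrna9. The mean was 4462 ± 508.1 (SD, n = 3) in Control and 3034 ± 571 (n = 3) in IDPN. The log2-fold change was -0.56 (SE 0.18, 95% interval -0.92 to -0.20), with Padj = 0.0426 in DESeq2 and an adjusted p of 0.127 in edgeR. Chrna10 was called downregulated without Control 3 (-0.65, DESeq2 Padj = 0.0126) and without IDPN 2 (-0.67, DESeq2 Padj = 0.0180), and its Padj was over 0.05, up to 0.247, when any of the other libraries was left out.

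Of the 2628 exon bases of Chrna10, 1025 (39.0%) also belong to exons of Art1, an ADP-ribosyltransferase gene on the opposite strand, and reads there carry no strand in these libraries. Art1 had 524, 540 and 669 estimated counts in Control and 515, 732 and 388 in IDPN, well below the 2566 to 4360 of Chrna10. Its log2-fold change was -0.28 (DESeq2 Padj = 0.649). Chrna9 shared no exon base with another gene, and Rapsn shared 4 with the antisense model Gm13778, which had at most 10 estimated counts in a library.

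Rapsn was expressed at a much lower level. Its normalized read counts were 172, 188 and 168 in Control and 245, 251 and 263 in IDPN, from 142 to 296 estimated counts per library. Every IDPN library was higher than every Control library, as was so for 11.1% of all genes tested, and the spread within each group was small, at 176 ± 10.6 (SD, n = 3) in Control and 253 ± 9.27 (n = 3) in IDPN. The log2-fold change was 0.52 (SE 0.22, 95% interval 0.086 to 0.96). Rapsn did not pass the adjusted threshold in DESeq2 (Padj = 0.166) or in edgeR (adjusted p = 0.162), and its Padj stayed between 0.207 and 0.377 when any 1 library was left out. Because rapsyn is abundant in muscle, the skeletal muscle markers were read beside it. Their summed normalized count was lower in IDPN (217 to 259) than in Control (278 to 329), Myog, Myod1 and Tnnc2 were at 0 in all libraries, and most of the sum came from Pygm, which is not specific to muscle. Of the 6 muscle markers tested, only the low-count Tnnt3 was called, downregulated from a mean of 21.4 to 1.66, and it was called in 4 of the 11 alternatives. The median log2-fold change of the muscle list was -0.35, and -0.11 with scaling to library totals. The part of muscle in the Rapsn values was not tested.

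**Figure D2:**
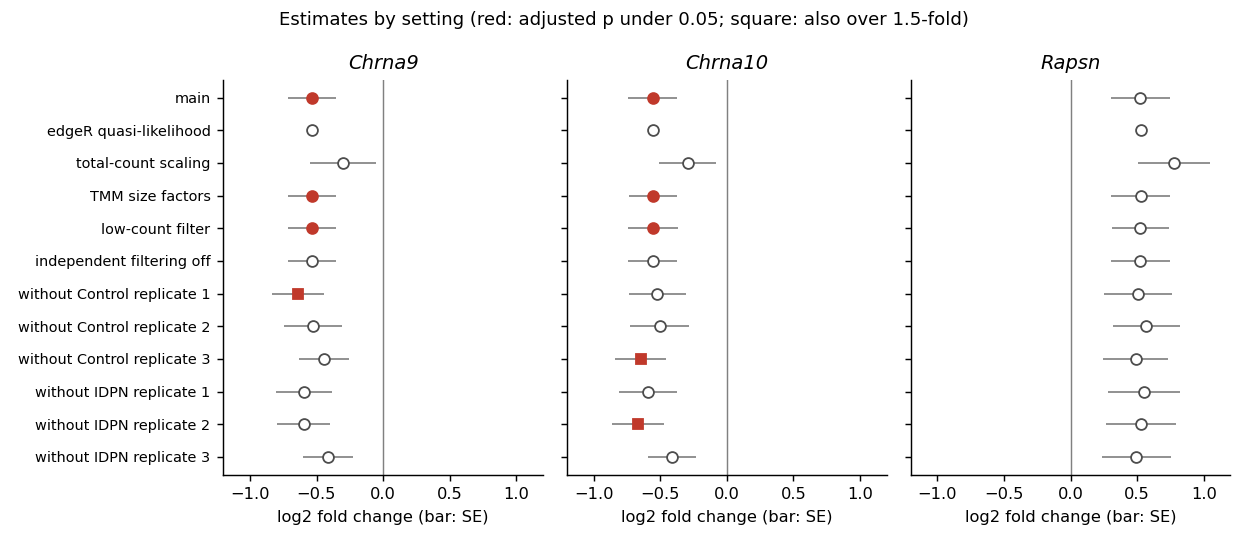
Log2-fold change of each gene (IDPN against Control, points with SE bars; edgeR gives no SE) in the DESeq2 fit and in 11 alternative settings. Chrna9 and Chrna10 stay below 0 and Rapsn above 0 in all of them, while the red symbols, with an adjusted p under 0.05, come and go for the subunits and are absent for Rapsn.

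Ratios within a library do not depend on how libraries are scaled to each other. The log2 ratio of Chrna10 to Chrna9 was 0.64, 0.43 and -0.02 in Control and 0.29, 0.41 and 0.26 in IDPN. The groups overlapped, and the means of 0.35 ± 0.33 (SD) and 0.32 ± 0.080 differed by -0.03 (two-sided exact permutation p = 0.90). The log2 ratio of Rapsn to Chrna9 was -4.12, -4.25 and -4.54 in Control and -3.42, -3.38 and -2.92 in IDPN. These groups did not overlap, and the mean ratio was 2.08-fold higher in IDPN. The log2 ratio of Rapsn to Chrna10 was -4.76, -4.67 and -4.52 in Control and -3.71, -3.80 and -3.18 in IDPN, a 2.13-fold higher mean ratio without overlap. For both Rapsn ratios the exact permutation p was 0.10, the smallest that 3 against 3 libraries allow, and 0.20 after adjustment over the 6 ratios tested. Neither ratio is separate evidence. Rapsn was higher and both subunit genes lower in every IDPN library, so these ratios had to separate.

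The same ratios were taken against the HC markers, as the mean of the log2 normalized counts of the 29 genes found. The log2 ratio of Chrna9 to the markers was 2.09, 2.16 and 2.08 in Control and 2.15, 2.26 and 1.87 in IDPN. The group means differed by -0.02, with overlap (exact permutation p = 0.90). For Chrna10 the ratio was 2.73, 2.59 and 2.07 in Control and 2.43, 2.67 and 2.13 in IDPN, and the means differed by -0.05 (exact permutation p = 0.90). A difference between these subunits and the mean of the HC markers was not detected. With 1 library left out it ranged from -0.10 to 0.094 for Chrna9 and from -0.25 to 0.093 for Chrna10. The single markers were unlike, with log2-fold changes from -1.21 (Gfi1) to 0.04 (Whrn), so this holds for their mean only. Myo7a, whose protein the study used to label HCs, was at 0.01. These genes are named here for their values or their use. For Rapsn the ratio was -2.04, -2.09 and -2.46 in Control and -1.28, -1.12 and -1.06 in IDPN, a 2.06-fold higher mean without overlap (exact permutation p = 0.10, adjusted 0.20).

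**Figure D3:**
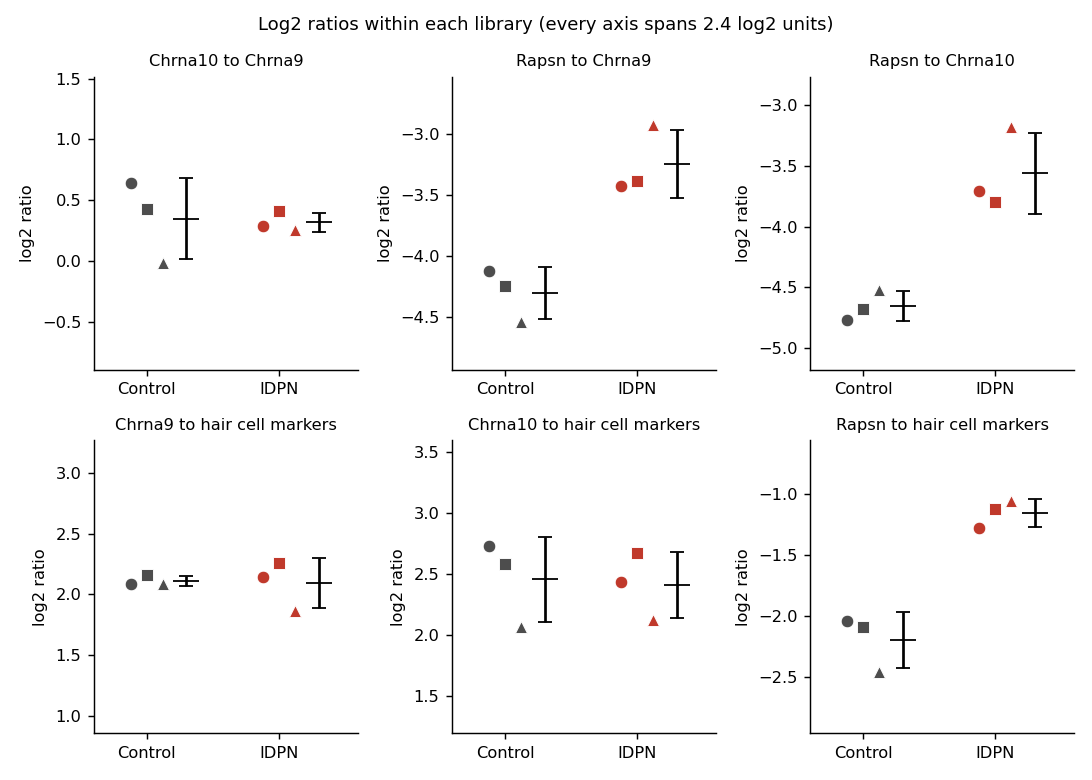
Log2 ratios within each library for the 6 ratios tested, Control (grey) and IDPN (red), with the group mean and SD (n = 3); every axis spans the same number of log2 units. The 3 ratios with Rapsn separate the groups by about 1 log2 unit, and the other 3 overlap.

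Levels of different genes were compared per kilobase of exon. Chrna10 and Chrna9 were the most abundant nicotinic subunits, at 1698 ± 193 (SD, n = 3) and 1158 ± 152 normalized counts per kilobase in Control, and 1154 ± 217 and 800 ± 120 in IDPN. Their order depended on the length used, since Chrna9 came first when only the longest coding transcript was counted, at 1901 ± 250 against 1775 ± 202 in Control. Next came Chrnb1, at 899 ± 167 in Control, which overlapped the range of Chrna9 on this scale but not per kilobase of the longest coding transcript (900.0 to 1275 against 1634 to 2128), and then Chrna1 at 173 ± 28.0, both known as subunits of the muscle-type receptor. Rapsn, at 97.8 ± 5.86, stood beside the neuronal-type subunit Chrna4 at 89.3 ± 8.68 in Control, with overlapping ranges. In IDPN, Rapsn reached 140 ± 5.15, level with Chrna1 at 134 ± 32.0. Chrnb2 followed at 63.8 ± 4.21 in Control.

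**Figure D4:**
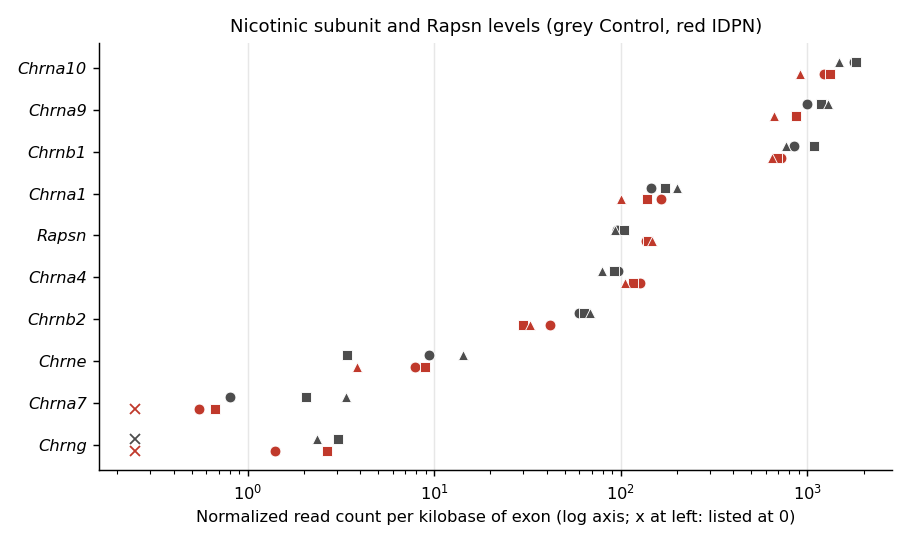
Normalized read count per kilobase of exon (log axis) of Rapsn and of each nicotinic subunit with at least 10 estimated counts in some library, Control grey and IDPN red, 1 symbol per library. Chrna10 and Chrna9 lie at the top, and the muscle-type subunits Chrne and Chrng lie near the detection limit.

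Of the 14 other nicotinic subunit genes, 7 were tested, 1 was called downregulated and none upregulated, with a median log2-fold change of -0.40 (all genes tested, 0.015, with 3.42% called downregulated). The median was -0.24 without Control 3, -0.15 without IDPN 3 and -0.12 with scaling to library totals. The gene called was Chrnb2, the beta2 subunit of the main neuronal receptor. Its normalized read counts were 501, 531 and 571 in Control and 349, 251 and 273 in IDPN, without overlap, for a log2-fold change of -0.88 (SE 0.21, DESeq2 Padj = 0.0011, edgeR adjusted p = 0.0254). It was no longer called with scaling to library totals (-0.62, DESeq2 Padj = 0.210). Chrna4, the usual partner of Chrnb2, had a log2-fold change of 0.38 (DESeq2 Padj = 0.275), from 400 to 485 normalized counts in Control and 528 to 635 in IDPN. Chrna1 (-0.36, Padj = 0.434), Chrnb1 (-0.39, Padj = 0.202), Chrne (-0.40, Padj = 0.882) and Chrng (-0.43, Padj = 0.935) had DESeq2 estimates below 0 that did not pass. Chrna2, Chrna3, Chrna5, Chrna6, Chrnb4 and Chrnd were at 0 in all 6 libraries.

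The receptor reaches the cell surface with the help of chaperones and of small Ly6-type proteins that bind nicotinic receptors. Of the 12 genes of this group, 10 were tested, 2 were called upregulated (2.32% of all genes tested were) and none downregulated. The median of -0.13 ranged from -0.25 without Control 2 to -0.03 without Control 3 and was 0.13 with scaling to library totals. Both were Ly6-type modulators with few reads. Ly6h had 6.06, 12.7 and 4.45 normalized counts in Control and 40.6, 60.2 and 62.5 in IDPN, for a log2-fold change of 2.83 (SE 0.59, DESeq2 Padj = 0.00012, edgeR adjusted p = 0.0198), and was called in all 11 alternatives. Lypd1 had 2.43, 0 and 1.78 in Control and 25.7, 14.1 and 17.7 in IDPN (3.76, SE 1.10, DESeq2 Padj = 0.0144, edgeR adjusted p = 0.0375). It lost its call without Control 2, IDPN 1 or IDPN 3, with DESeq2 Padj up to 0.149. Tmie, a subunit of the mechanotransduction channel complex that was also proposed as a receptor accessory protein, had a log2-fold change of -0.14 (DESeq2 Padj = 0.731); it is named here for its role and not for its change.

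Of the 9 clustering partners of rapsyn, all were tested and 1 was called downregulated (3.42% of all genes tested were). The median of -0.037 had no stable sign, at -0.095 to 0.13 with 1 library left out and 0.21 with scaling to library totals. Utrn, which encodes the dystrophin relative utrophin, fell from 2236, 2302 and 2123 to 1597, 1410 and 1363 normalized counts (-0.61, SE 0.15, DESeq2 Padj = 0.0028, edgeR adjusted p = 0.0287). Without IDPN 2 or IDPN 3, and with scaling to library totals (-0.34, DESeq2 Padj = 0.396), Utrn was not called. The signalling genes upstream of rapsyn, picked here for their role after their values were seen, did not pass: the log2-fold change was 0.35 for Agrn (agrin, DESeq2 Padj = 0.219), 0.46 for Musk (0.443), -0.16 for Lrp4 (0.832) and -0.05 for Dok7 (0.955).

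Downstream of the receptor, the genes of the BK and SK2 channels were called downregulated. Of the 12 listed genes for potassium channels and ryanodine receptors, 11 were tested, 2 were called downregulated (3.42% of all genes tested were) and none upregulated. The median was -0.72, and -0.40 with scaling to library totals. Kcnma1, the pore of the BK channel, had 283, 306 and 405 normalized counts in Control and 73.7, 59.2 and 66.3 in IDPN. That is a log2-fold change of -2.32 (SE 0.26, DESeq2 Padj = 8.2e-16, edgeR adjusted p = 0.0011), called in all 11 alternatives. Kcnn2, the SK2 channel that the receptor's calcium opens, had 3064, 2716 and 4587 in Control and 2107, 1141 and 863 in IDPN (-1.33, SE 0.28, DESeq2 Padj = 0.00017, edgeR adjusted p = 0.0548). Its groups did not overlap, yet it was also not called without Control 1, Control 3 or IDPN 2, with DESeq2 Padj up to 0.240.

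Relative to the mean of Chrna9 and Chrna10 in the same library, the log2 ratio of Kcnma1 was -3.73, -3.76 and -3.27 in Control and -5.29, -5.66 and -5.03 in IDPN. The difference of the means was -1.75, and the groups did not overlap. For Kcnn2 the log2 ratio was -0.30, -0.61 and 0.23 in Control and -0.47, -1.41 and -1.34 in IDPN, a difference of -0.85 with overlap between Control 2 and IDPN 1. These 2 channels were picked after their values were seen, so no test is given.

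**Figure D5:**
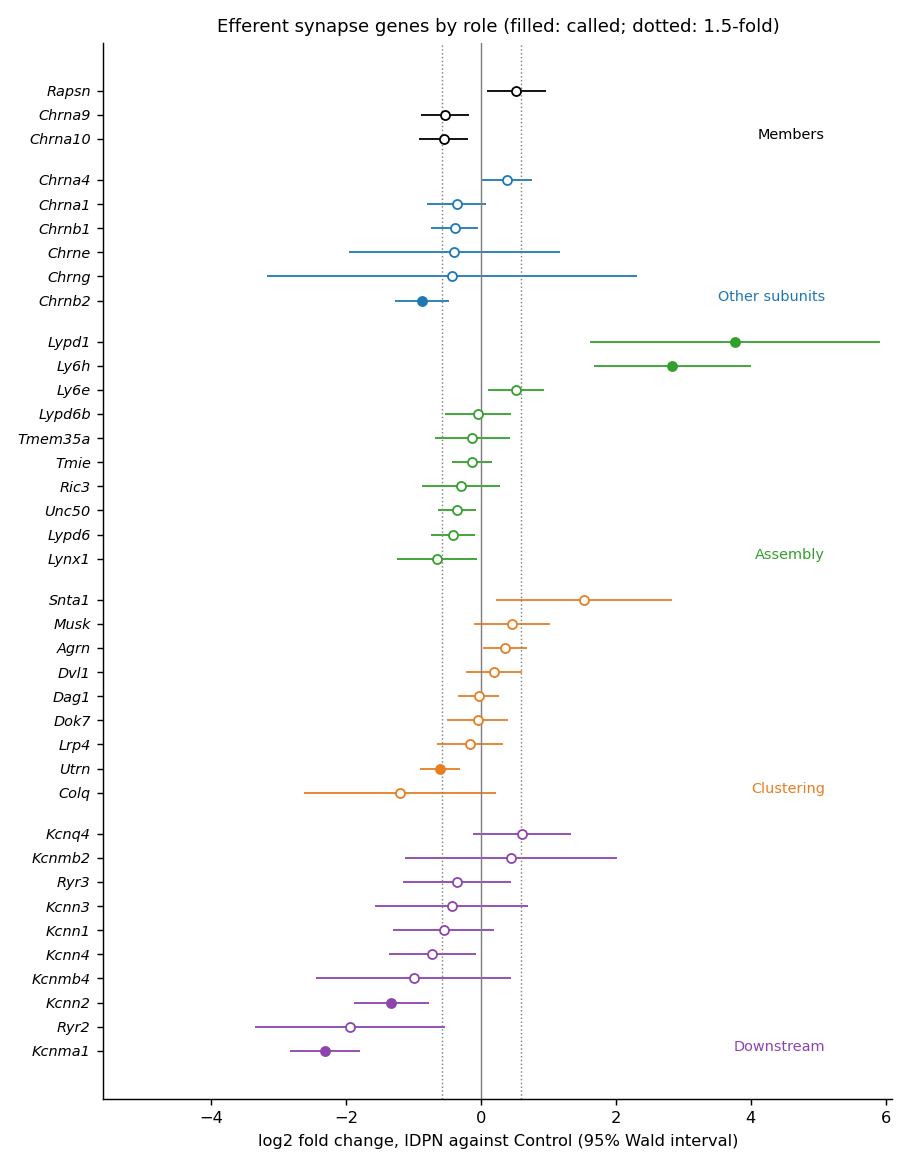
Log2-fold change (IDPN against Control) with 95% Wald interval for the 3 genes and for the other subunits, assembly, clustering and downstream channel genes with at least 10 estimated counts in 3 or more libraries; filled points were called and dotted lines mark a 1.5-fold change. Ly6h and Lypd1 lie far to the right, Kcnma1 far to the left, and Chrna9, Chrna10 and Rapsn just inside the dotted lines.

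The presynaptic side was barely visible. Chat and Slc18a3, which make and load acetylcholine in efferent endings, were at 0 in every library; the efferent cell bodies lie in the brainstem and were not sampled. Of 6 cholinergic terminal genes, 2 were tested and neither passed: Ache had a log2-fold change of -0.15 (DESeq2 Padj = 0.887) and Bche of -0.28 (Padj = 0.622). Slc5a7 and Slc10a4 had at most 7.28 normalized counts. Of 5 genes of the CGRP system, the peptide co-transmitter of efferents and its receptor, 4 were tested and none was called. Calca, the peptide gene, had 81.3, 87.7 and 88.1 normalized counts in Control and 205, 109 and 124 in IDPN, without overlap (0.77, DESeq2 Padj = 0.159), while Ramp1 (-0.37), Calcrl (-0.14) and Crcp (-0.08) of the receptor complex did not pass. Of 5 muscarinic receptor genes, the other class of acetylcholine receptor, 3 were tested with none called. Mean normalized counts were low, at 30.7 in Control and 16.5 in IDPN for Chrm1 and 27.5 and 34.3 for Chrm2.

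Markers of the cells that could carry these genes gave the following values. Over all genes tested, 3.42% were called downregulated and 2.32% upregulated. Among the 6 most abundant of the HC markers, the transcription factor gene Pou4f3 (mean 6354 in Control and 3174 in IDPN), Smpx (-1.15) and Otof (-0.75), the otoferlin gene of the HC synapse, were called downregulated. Ush1c (-0.57) passed Padj only, and Myo6 (-0.21) and Espn (-0.18) did not pass. Of 4 type I HC markers, Ocm (-1.98), Kcna10 (-1.04) and Atp2b2 (-1.15) were called downregulated, and Spp1 (-0.53, DESeq2 Padj = 0.0502) was not. The study lists the called type I genes as downregulated in all its comparisons, these libraries included, so their calls were known in advance. Of 3 type II markers, Calb2 (-0.90) was called downregulated. The list medians were -1.10 for type I, which rests mostly on the genes known in advance, and -0.16 for type II. With scaling to library totals Calb2 was not called and the type II median was 0.077. Of 7 tested genes listed as neuron markers, 3 were called downregulated (Nefl, Nefm and Snap25). Whether their RNA came from neurons alone was not tested. The low-count Prph went the other way without being called (1.51, DESeq2 Padj = 0.148), and 1 neuron marker was called upregulated without Control 3. Nefm lost its call in 6 of the 11 alternatives, edgeR included (adjusted p = 0.0719), Nefl in 4, and Snap25 only with scaling to library totals. Under that scaling no neuron marker was called, and 1 was called downregulated without Control 1 or without IDPN 1. Of 11 supporting cell markers, Sox10 (0.80) was upregulated and Gjb6 (-0.94) downregulated, with a list median of -0.39. Gjb6 was not called by edgeR (adjusted p = 0.0690), and 2 supporting cell markers were called downregulated without Control 3 and 3 without IDPN 2. None of 7 Schwann cell markers was called (median -0.44), but 3 were called downregulated without Control 3 and 1 without Control 2, and the median was -0.14 without Control 1. Their summed normalized count was 239334 in Control 1 against 111358 to 127938 in the other Control libraries. None of 8 macrophage markers was called (median 0.53, or 0.35 without Control 1 and 0.27 without IDPN 2), and 1 was called upregulated without Control 2 or with scaling to library totals, with sums of 2099 to 2953 in Control and 2519 to 3721 in IDPN. The part of these cell types in the values of Chrna9, Chrna10 and Rapsn was not tested.

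For each gene, the most alike of 11162 genes were ranked by the root mean square difference of centred log2 normalized counts over the 6 libraries. All 6 libraries and the treatment are shared by these profiles, so the ranks are a description. Closest to Chrna9 were Rph3al (difference 0.0655), Net1 (0.0689), Slc39a11 (0.0700), Mtus2 (0.0718) and Sco2 (0.0860), while Chrna10 ranked 354 (0.199). Closest to Chrna10 were Ap3b2 (0.0514), Kcp (0.0671), Fbln1 (0.0689), Gpld1 (0.0781) and Spag8 (0.0832), and Chrna9 ranked 334. The study lists Ap3b2 as downregulated in all its comparisons, these libraries included. Here Ap3b2 had a log2-fold change of -0.54 (DESeq2 Padj = 0.0458), which is below the 1.5-fold threshold, so it was not called. The subunits of one receptor were not each other's nearest profiles, and the lowest Control library was Control 1 for Chrna9 and Control 3 for Chrna10. Closest to Rapsn were Ccnd1 (0.0336), Setd7 (0.0338), Arhgef16 (0.0484), Tdrp (0.0495) and Degs2 (0.0547). Arhgef16, Tdrp and Degs2, with log2-fold changes of 0.55, 0.47 and 0.55, had a DESeq2 Padj under 0.05 (0.0415, 0.0359 and 0.0497). Ccnd1 and Setd7, both at 0.52, did not (DESeq2 Padj = 0.218 and 0.0812). These genes were ranked on the same 6 libraries, so their Padj is no separate evidence about Rapsn. The 2 subunit genes ranked 10030 and 10125.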

How the data were processed

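RNA from the pooled epithelium of each animal (6 to 11 ng) was converted to cDNA with the SMART-seq2 protocol, amplified for 8 and then 12 PCR cycles without molecular identifiers or strand, and sequenced in pairs. Per the study's methods, the authors aligned reads with STAR 2.5.3a to GRCm38 and quantified GENCODE M15 genes with RSEM (given as 2.3.0). The deposited table holds estimated counts, already whole numbers, for 52636 genes; the 3 Control and 3 IDPN libraries were assigned from the treatment label and the column names. Totals of 40474847 to 43566332 set the counting precision, which is lowest for genes with few counts.

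Counts were fitted over the whole table with DESeq2 1.42.0 (Wald test, R 4.3.3), with independent filtering at 0.05 and Benjamini-Hochberg adjustment; edgeR 4.0.16 (quasi-likelihood, TMM) was the first alternative, and scaling, low-count filter, independent filtering and leaving out each library were others. The fit was tested on simulated data. Log2 ratios used normalized counts plus 0.5 and two-sided exact permutation tests. Coordinates and lengths come from GENCODE M21 on the same build. Each library is 1 animal. Members and gene lists were chosen with earlier results of these data known. Text names the members, the other subunits with at least 10 counts in 3 libraries, in each other list the called genes (the 6 most abundant where none or more than 6 were called), and per member the 5 most alike genes (mean over 100); exceptions are marked. Schwann cell and macrophage markers are given as sums. Part of the downstream list is not reported here.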

Additional observations from a re-analysis of the deposited data

How the results depend on the processing

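The direction of Chrna9, Chrna10 and Rapsn was kept in all 11 alternatives, and their side of the calling rule in all but the 3 named next. Leaving out 1 library gave log2-fold changes of -0.64 to -0.42 for Chrna9, -0.67 to -0.41 for Chrna10 and 0.49 to 0.57 for Rapsn; Chrna9 became called without Control 1, and Chrna10 without Control 3 or without IDPN 2. Of the 11 alternatives, DESeq2 or edgeR gave an adjusted p under 0.05 in 3 for Chrna9, 4 for Chrna10 and 0 for Rapsn. With scaling to library totals, Chrna9 was at -0.30 (DESeq2 Padj = 0.516), Chrna10 at -0.30 (Padj = 0.448) and Rapsn at 0.78 (Padj = 0.0702); with independent filtering off, the DESeq2 Padj was 0.0663, 0.0616 and 0.235. Over the whole table, edgeR called 166 genes higher and 357 lower, scaling to library totals called 609 higher and 214 lower, and leaving out 1 library called 234 to 611 higher and 436 to 720 lower; the cause was not tested. With the summed instead of the mean log2 markers, the difference of the Chrna9 ratio to HC markers was 0.03 (0.033 on the log2 scale) and that of Chrna10 0.0023. Leaving out 1 library, the ratio differences ranged from -0.21 to 0.11 for Chrna10 to Chrna9, -0.10 to 0.094 for Chrna9 to HC markers and -0.25 to 0.093 for Chrna10 to HC markers, so the sign of these differences is not set; the 3 Rapsn ratios stayed between 0.90 and 1.21. The counts of called genes per list, rerun with edgeR, scaling to library totals and each library left out, moved by over 1.5 times in 28 of 240 values, among them HC markers (9 to 4 with scaling to library totals) and Schwann cell markers (0 to 3 without Control 3). No paired analysis was made, because the Control and IDPN libraries came from different animals and the labels give no pairing. Counts were low for Rapsn (142 to 296 per library) and lower for Ly6h and Lypd1; depth as a limit was not tested.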
